A study of Caenorhabditis elegans with 2 samples.

Results

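The retinoblastoma homologue gene lin-35 and 7 genes whose products assemble with it in the DREAM complex were examined for ZTF-28, a zinc finger protein by its name, in whole Caenorhabditis elegans. The 8 genes (lin-35, efl-1, dpl-1, lin-54, lin-53, lin-9, lin-37 and lin-52) were taken by name from 19973 annotated protein-coding genes. The set was chosen by the pooled signal and replicate values of its peaks, with the strong peak at lin-35 already known. All values below are therefore a description, without a test. For each gene, every peak was taken whose summit, the position of highest signal, lay within 1000 bp of an annotated transcript start.

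Chromatin immunoprecipitation and sequencing (ChIP-seq) was done in 2 biological replicates of strain RW12281, which carries the allele st12281[ztf-28::TY1::EGFP::3xFLAG], an epitope and EGFP tag inserted by CRISPR at ztf-28 on chromosome V. The worms had been held as starved first-stage larvae after bleaching, grew to young adults and were collected at 63 hours. An anti-GFP antibody was used on sonicated chromatin of whole animals, so values mix germ line and soma, and binding in more cells cannot be told apart from stronger binding per cell. The labels give no sex. There was no second condition, and no control library was analysed here. The replicates therefore show only the spread between 2 samples of 1 strain.

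In C. elegans the DREAM complex joins 3 kinds of protein. LIN-35 is the pocket protein. EFL-1 and DPL-1 form the E2F and DP pair that binds DNA, and LIN-54, LIN-53, LIN-9, LIN-37 and LIN-52 form the MuvB core, in which LIN-54 binds DNA. The complex is known for repressing cell cycle genes and, in somatic cells, germ line genes. Loss of its subunits gives extra vulval fates when a second class of genes is also lost, the synthetic multivulva (synMuv) phenotype that named many of these genes. In the germ line, EFL-1 and DPL-1 are also known to promote expression of genes of oogenesis.

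Peaks near the starts of lin-35, lin-53, lin-54 and lin-9 passed the authors' threshold for reproducibility between the replicates, and none near efl-1, dpl-1, lin-37 or lin-52 did. The threshold is an irreproducible discovery rate (IDR) of 0.01, where a low IDR means that a peak ranked high in both lists compared. The reproducible list held 1086 peaks. The 4 of 8 genes stand beside 884 of 19973 protein-coding genes with such a peak by the same window (4.43%), and since lin-35 was chosen for its peak nothing is read from that difference. The same 4 genes had a peak in the list from the pooled libraries (1137 peaks, 4.52% of protein-coding genes), and 3 of them in the list of replicate 1 alone (1.62%) and in that of replicate 2 alone (1.95%). They were the same 4 at an IDR of at most 0.001 (1.54% of protein-coding genes). The window made no difference to them: they were the same 4 with summits within 500 bp (3.2%), from 500 bp upstream to 200 bp downstream (2.99%), with any overlap of the peak and the 1000 bp window (4.81%) and with 1 start per gene (4.07%). Signal below is the authors' value per peak on a scale not given in the sources used here. Sequencing depth cannot be had from the peak lists.

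The intervals of the lin-9 and lin-54 peaks are shown because they hold words like those that DREAM subunits bind, and that of the strongest peak of dpl-1, the member with the lowest signal, is set beside them. Capitals mark 2 sets of words, on either strand. The E2F words, like those bound by E2F and DP proteins, were TTNNCGC with C or G at each N. The CHR words, like those bound by LIN-54 and its relatives, were TTNGAA with T or C at N. The intervals are from assembly ce11 (RefSeq WBcel235 sequence), leave out UTRs of over 30 bases and are written on the strand of the gene, 5′ to 3′.
lin-9, chrIII:8904096-8904395, minus strand, reproducible: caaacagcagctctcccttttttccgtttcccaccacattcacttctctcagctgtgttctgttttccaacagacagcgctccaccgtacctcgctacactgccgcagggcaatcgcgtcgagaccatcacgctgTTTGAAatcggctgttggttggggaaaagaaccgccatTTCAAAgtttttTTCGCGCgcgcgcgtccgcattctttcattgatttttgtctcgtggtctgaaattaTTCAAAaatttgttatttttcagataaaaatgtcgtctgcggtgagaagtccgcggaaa
lin-54, chrIV:13240652-13240815, plus strand, reproducible, the part between rpl-12 and lin-54: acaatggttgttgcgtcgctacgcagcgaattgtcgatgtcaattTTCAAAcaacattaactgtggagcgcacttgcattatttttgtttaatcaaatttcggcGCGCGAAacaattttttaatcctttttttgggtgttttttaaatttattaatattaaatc
dpl-1, chrII:9169447-9169746, plus strand, not reproducible: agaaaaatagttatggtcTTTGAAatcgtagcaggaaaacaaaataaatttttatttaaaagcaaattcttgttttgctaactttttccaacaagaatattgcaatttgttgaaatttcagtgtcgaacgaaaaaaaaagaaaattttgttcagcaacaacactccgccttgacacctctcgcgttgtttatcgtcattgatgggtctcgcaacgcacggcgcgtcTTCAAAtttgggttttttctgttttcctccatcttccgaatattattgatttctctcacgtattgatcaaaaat

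The lin-9 interval held 1 E2F word and 3 CHR words, and the whole lin-54 interval of 300 bp held 2 E2F words and 1 CHR word, of which the part shown holds 1 of each. The dpl-1 interval held 2 CHR words and no E2F word. The lin-9 and lin-54 intervals were picked for their words, and no word of either set lay within 150 bp of the lin-35 summit. Over the reproducible list 25.4% of such windows held an E2F word and 56.1% a CHR word. A match is a run of letters and not a mapped site of any factor, and a missing match says nothing of a factor's binding.

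lin-35, the pocket protein gene (WBGene00003020, chromosome I, 5807709 to 5815637, plus strand), had the strongest peak of the 8. Its pooled signal was 167.8, with values of 71.6 in replicate 1 and 100.3 in replicate 2 and an IDR of 0.000231. The summit lay at -167 bp from the annotated start, in a peak of 78 bp from 5807485 to 5807562. The width of 78 bp is that of the pooled libraries, where the median of the reproducible list was 300 bp. In the lists of each replicate alone the lin-35 peak was 284 bp wide in replicate 1 and 280 bp in replicate 2.

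By pooled signal the lin-35 peak stood at place 110 of 1086, by the replicate 1 value at place 160 and by the replicate 2 value at place 82. It was also in the thresholded lists of each replicate alone, at place 162 of 342 in replicate 1 and place 81 of 411 in replicate 2. In those lists its summit lay at -218 and -175 bp from the start. The next ranked peak within 1000 bp had a signal of 18.4, so the strongest was 9.12 times the second. Among protein-coding genes, 99.4% had a lower highest signal than lin-35 within the same distance, and 120 genes, lin-35 included, were at or above it. The peak upstream of lin-35 was thus found in each replicate, and the nearest ranked summit beyond 1000 bp, 1349 bp away, had a signal of 53.8.

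The lin-35 summit also lay upstream of a second gene. vps-51, which encodes a homologue of a subunit of membrane tethering complexes, is read in the opposite direction from a start 418 bp away, and the summit was 251 bp upstream of it. Which of the 2 genes the peak belongs to was not tested.

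Of the genes for DNA-binding subunits, lin-54 had a reproducible peak and efl-1 and dpl-1 did not. lin-54 (WBGene00003037, chromosome IV, 13241044 to 13243401, plus strand) had a pooled signal of 127.6, with values of 58.4 in replicate 1 and 68.8 in replicate 2 and an IDR of 0.000682. It was at place 237 of 1086 by pooled signal. Its summit lay at -378 bp from the lin-54 start and at -15 bp from a start of rpl-12, a gene of the large ribosomal subunit read in the opposite direction. The lin-54 peak is thus also the peak of a ribosomal protein gene and is much nearer to that gene's start. In the list of replicate 2 alone the peak passed the threshold (signal 68.8, IDR 0.0029). The ranked list of replicate 1 alone held no overlapping peak, although the comparison of both replicates gives a replicate 1 value of 58.4.

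efl-1, the E2F gene (WBGene00001161, chromosome V, 16958590 to 16965675, minus strand), had 4 ranked peaks within 1000 bp and no reproducible one. The strongest was 48.4 in the pooled libraries, 21.4 in replicate 1 and 30.8 in replicate 2 (IDR 0.14). It lay at -987 bp, just inside the 1000 bp limit, and only 152 bp upstream of the F-box gene fbxa-90. A second peak almost on the efl-1 start, at -16 bp, was 35.4 in the pooled libraries, 19.1 in replicate 1 and 32.4 in replicate 2 (IDR 0.184).

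dpl-1, the gene of the DP partner (WBGene00001061, chromosome II, 9169910 to 9172565, plus strand), had the lowest strongest peak of the 8. It was 26.8 in the pooled libraries, 12.4 in replicate 1 and 15.8 in replicate 2 (IDR 0.467). The summit lay at -313 bp, inside T23G7.2, which overlaps the region on the minus strand. The ranked list of neither replicate alone held an overlapping peak. The strongest dpl-1 signal is close to the median of 23.9 over all 103094 ranked peaks.

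In the rest of the MuvB core, lin-53 and lin-9 had reproducible peaks and lin-37 and lin-52 had none. lin-53 encodes a WD40 histone chaperone that is also shared with other chromatin complexes (WBGene00003036, chromosome I, 9618196 to 9619760, minus strand). It had a pooled signal of 138.1, with values of 66.9 in replicate 1 and 73.8 in replicate 2 and an IDR of 0.000447. Its rank was 195 of 1086 by pooled signal and lay between 193 and 199 by the 2 replicate values. The peak passed the threshold in each replicate's own list, with summits at -230 and -205 bp against -242 bp in the pooled libraries. lin-53 and lin-35 were the 2 members found in all 4 thresholded lists.

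The lin-53 summit lay between 2 starts that face away from each other. nra-2, which encodes a homologue of the endoplasmic reticulum protein nicalin, starts 467 bp from lin-53, and the summit was 225 bp upstream of it and 242 bp upstream of lin-53. On the other side, lin-53 is followed by its paralogue rba-1, whose strongest ranked peak within 1000 bp, with a signal of 34.9, is the second peak of lin-53. That peak was 13.4 in replicate 1 and 21.9 in replicate 2 (IDR 0.411).

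lin-9 encodes a core subunit of MuvB (WBGene00002998, chromosome III, 8900237 to 8904131, minus strand). Its pooled signal was 117.3, with values of 59.3 in replicate 1 and 56.6 in replicate 2 and an IDR of 0.000883. The summit lay at -115 bp, the closest to the gene's own start of the 4 reproducible peaks. It was the only one of the 4 with no start of another gene within 1000 bp. The next protein-coding gene upstream, unc-32, which encodes a vacuolar ATPase subunit, starts 1484 bp away and had no reproducible peak (highest signal 24.9). The lin-9 peak passed in the list of replicate 1 alone (signal 59.3, IDR 0.00287) and missed the threshold in that of replicate 2 (signal 56.6, IDR 0.0646).

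lin-37 and lin-52, the small subunits, lie close behind another gene on the same strand. lin-37 (WBGene00003022, chromosome III, 7070890 to 7072552, minus strand) had a strongest signal of 54.1, with 21.6 in replicate 1 and 32.6 in replicate 2 (IDR 0.126). The summit was at -380 bp, inside ZK418.5, whose end lies 60 bp from lin-37. lin-52 (WBGene00003035, chromosome III, 9824083 to 9824750, minus strand) had a strongest signal of 34.7, with 19.02 in replicate 1 and 23.82 in replicate 2 (IDR 0.247). The summit was at -487 bp, inside ZK632.9, whose end lies 126 bp from lin-52. Both summits were also the strongest ranked ones within 1000 bp of the starts of ZK418.5 and ZK632.9, and neither of these genes had a reproducible peak.

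**Figure D1:**
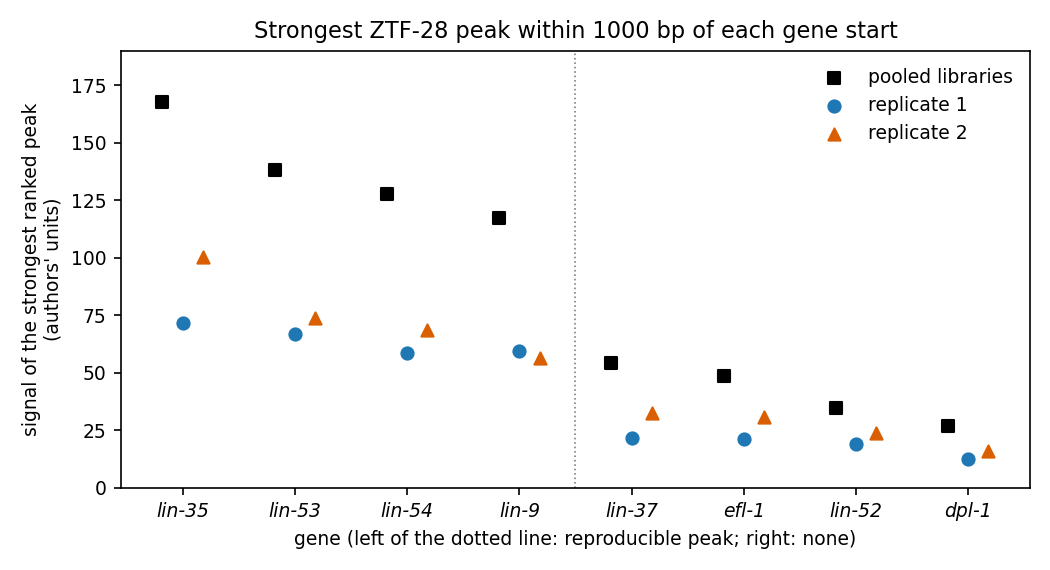
The vertical axis gives the signal of the strongest ranked peak within 1000 bp of each gene start, in the authors' units; squares are the pooled libraries, circles replicate 1 and triangles replicate 2, and each symbol is 1 value. The 4 genes left of the dotted line, with pooled signals of 117.3 to 167.8, have a reproducible peak, and the 4 on the right, at 26.8 to 54.1, have none.

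At the strongest pooled peak of each gene, the 2 sets were far apart in both replicate values of the comparison of replicates. In replicate 1 the values were 58.4 to 71.6 at the 4 genes with a reproducible peak and 12.4 to 21.6 at the other 4. In replicate 2 they were 56.6 to 100.3 and 15.8 to 32.6. The sets do not overlap in any library, but the threshold itself sorts peaks by these values, so the gap describes the genes and supports nothing. No member lay near the threshold in the comparison of replicates: the highest IDR inside it was 0.000883 at lin-9 and the lowest outside it was 0.126 at lin-37.

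The order of the 8 genes by pooled signal was lin-35, lin-53, lin-54, lin-9, lin-37, efl-1, lin-52 and dpl-1. By the replicate 2 values of the same peaks the order was the same. In replicate 1 lin-9 (59.3) and lin-54 (58.4) changed places, as neighbours that the replicates do not separate. At these peaks lin-37 and efl-1 were also close, at 21.6 and 21.4 in replicate 1 and 32.6 and 30.8 in replicate 2. The efl-1 value of 21.4 is that of a replicate 1 peak with its own summit at -1130 bp, outside the 1000 bp limit. Within that limit the highest signals in the ranked list of replicate 1 alone were 23.9 at lin-37 and 19.1 at efl-1.

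The ratio of the replicate 2 to the replicate 1 value was 1.4 at lin-35, against a median of 1.05 and quartiles of 0.86 and 1.25 over the reproducible list. It was 0.95 at lin-9, 1.1 at lin-53 and 1.18 at lin-54, within those quartiles. At the 4 genes without a reproducible peak it was 1.25 to 1.51. lin-35 thus leaned more toward replicate 2 than most reproducible peaks.

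**Figure D2:**
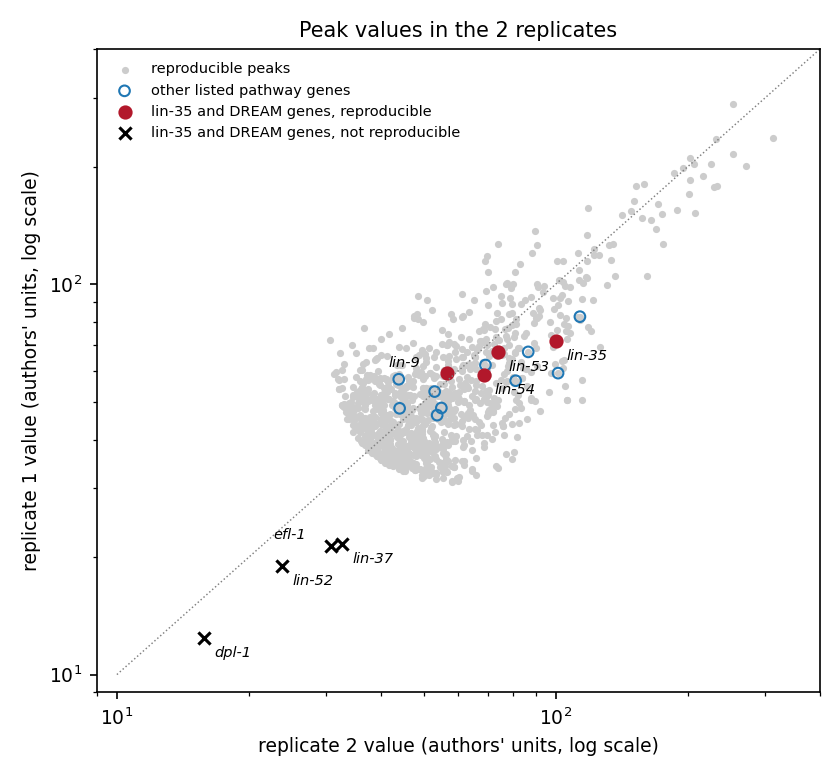
Each point is a peak, with its value in replicate 2 on the horizontal and in replicate 1 on the vertical axis, both in the authors' units on log scales; the dotted line marks equal values. lin-35, lin-53, lin-54 and lin-9 (red) lie inside the grey cloud of 1086 reproducible peaks, the other 4 members (crosses) lie below it, and open circles are 10 other listed genes with a reproducible peak.

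The 4 reproducible summits were all upstream of the member's start, between -115 and -378 bp, and no reproducible summit lay inside any of the 8 genes or between 1000 and 2000 bp from their starts. At these 4 genes the strongest peak was 3.65 to 9.12 times the second ranked peak within 1000 bp. At efl-1, dpl-1, lin-37 and lin-52 it was 1.23 to 1.7 times the second, so no single peak dominated there. Just outside the 1000 bp limit, the nearest ranked summits were 1098 to 1853 bp away with signals of 7.1 to 56.0.

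**Figure D3:**
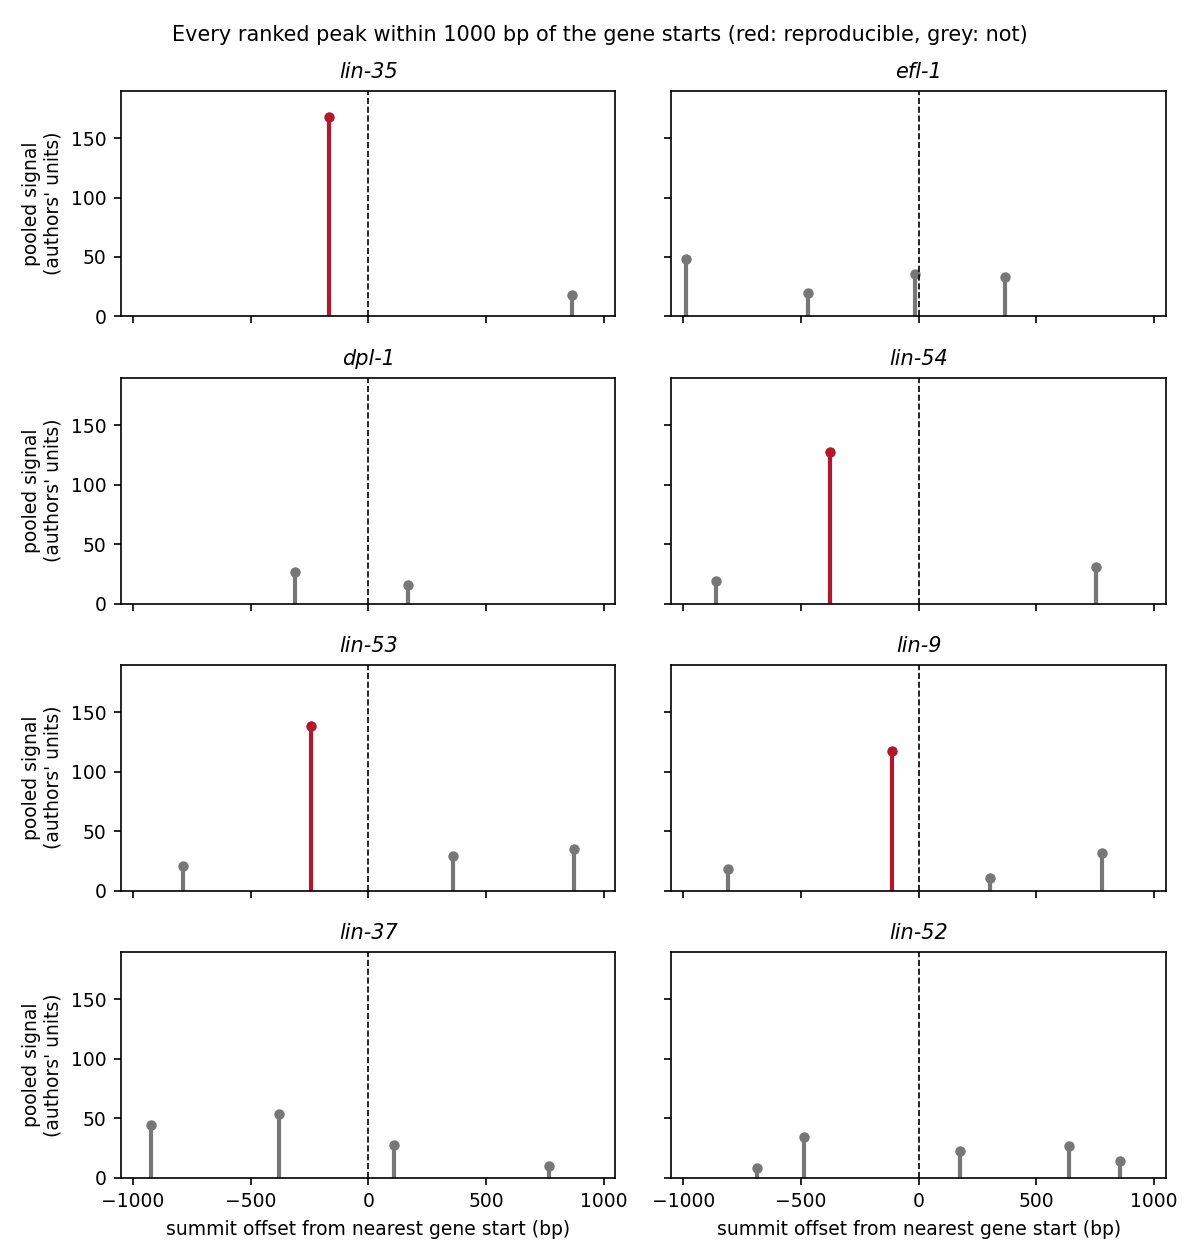
Each panel shows 1 gene, with the distance of each ranked summit from the nearest annotated start in bp on the horizontal axis (upstream is negative, the dashed line is the start) and its pooled signal in the authors' units on the vertical axis. A single tall red line, the reproducible peak, stands upstream of lin-35, lin-54, lin-53 and lin-9, and the other panels hold grey lines of at most 54.1.

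Of the 4 reproducible peaks, 3 lay between 2 protein-coding starts that face away from each other. Over the whole list this held for 185 of the 674 peaks with a protein-coding start within 1000 bp (27.4%). The exception was lin-9. Over all 8 genes, the strongest ranked summit was nearer to a start of another gene at lin-53, lin-54, efl-1 and lin-52, 4 of 8, against 22.5% of the 16462 protein-coding genes with a ranked peak. With the ranked summit nearest to the start in place of the strongest, the count was 2 of 8, so nothing is read from it. At lin-53 the strongest summit was almost midway.

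Set among all protein-coding genes, the members fell into 2 ranges. The highest signal within 1000 bp was above that of 99.4% of protein-coding genes at lin-35, 99.0% at lin-53, 98.8% at lin-54 and 98.5% at lin-9. At the other members it was above that of 84.1% at lin-37, 77.2% at efl-1, 51.1% at lin-52 and 34.3% at dpl-1. The median over the 8 members was 85.7, against 34.2 over all protein-coding genes, of which 82.4% had any ranked peak. The median of the members rests on 2 separate ranges and describes no single gene.

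**Figure D4:**
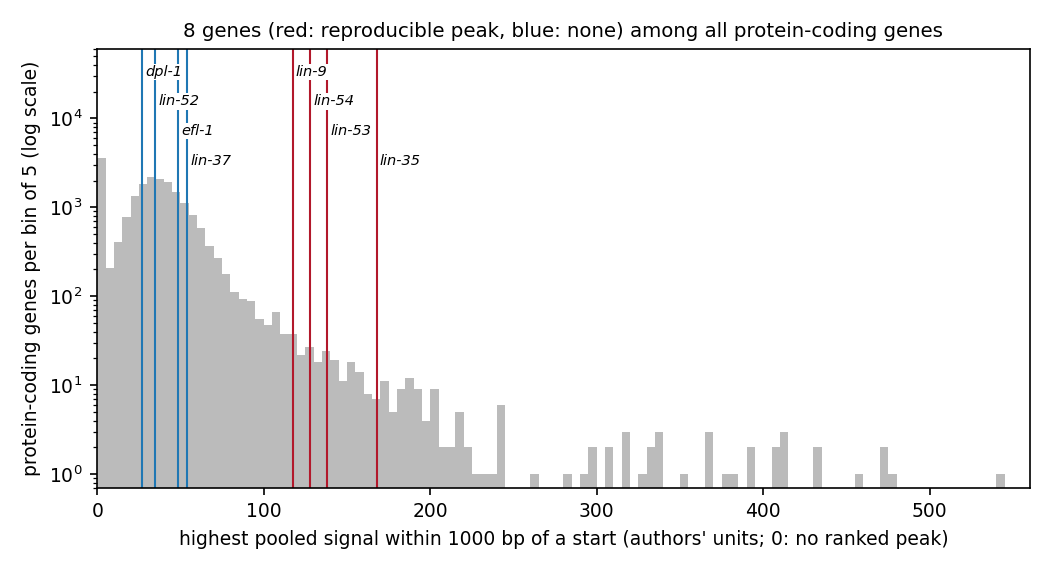
The histogram counts protein-coding genes (log scale) by their highest pooled signal within 1000 bp of a start, in bins of 5 of the authors' units, with genes without a ranked peak at 0. The red lines of lin-9, lin-54, lin-53 and lin-35 stand in the upper tail, and the blue lines of dpl-1, lin-52, efl-1 and lin-37 stand between 26.8 and 54.1, on both sides of the median of 34.2.

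Words of the E2F set were found within 150 bp of the strongest summit at 3 of the 8 genes, lin-9, lin-53 and lin-54, and all 3 have a reproducible peak. Over the reproducible list 25.4% of such windows of 301 bp held an E2F word, and over the ranked peaks that did not pass 11.7% did. Within 75 bp of the summit the count was 2 of 8, against 18.5% over the reproducible list. The word at lin-53, at -105 bp from its summit, was the one left out. Nothing is read from these counts. From the member's own start, the words stood at -416 and -285 bp at lin-54, at -140 bp at lin-53 and at -76 bp at lin-9. The lin-54 word at -416 bp lay beyond the rpl-12 start, which is 393 bp from that of lin-54, and so inside rpl-12. lin-35 held no word of this set in its window. CHR words were found at 6 of the 8 genes, against 56.1% of reproducible windows and 61.1% of those that did not pass. lin-35 and lin-37 had none. The reproducible windows had a median share of G and C of 42.9%, and the windows of peaks that did not pass 38.5%. How far this difference in bases accounts for the E2F and CHR percentages was not tested. In windows from 250 bp upstream to 50 bp downstream of the starts themselves, E2F words were found at efl-1, lin-9 and lin-53, 3 of 8 members, against 9.2% of protein-coding genes. CHR words were found there at 6 of 8 members, against 68.9%.

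The share of G and C within 150 bp of the summit was 34.6% at lin-35, 38.9% at lin-53, 40.9% at lin-54 and 47.2% at lin-9, against a median of 42.9% with quartiles of 38.2% and 47.5% over the reproducible list. At the other members it was 33.9% at dpl-1, 39.2% at efl-1, 39.9% at lin-37 and 45.8% at lin-52. lin-35 lay below the lower quartile.

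Other synMuv genes, other E2F genes, genes for partners of LIN-53 and genes of the cell cycle and of replication were read in the same way. They came from 8 lists of 64 genes in all. Of these 64 genes, 10 had a reproducible peak (15.6%), against 4.43% of all protein-coding genes. The 54 others had none. The median highest signal of the 64 was 52.1, between the 85.7 of the 8 members and the 34.2 of all genes. The lists, like the members, were chosen with earlier results of these data known, so nothing is read from these differences. At 7 of the 10 genes the summit was nearest to the gene's own start.

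Of the other class B synMuv genes, which share the vulval phenotype, 2 of 10 had a reproducible peak. mep-1, a zinc finger protein that works with the chromatin remodeller LET-418, had a signal of 93.8 (57.1 and 43.9 in replicates 1 and 2). Its summit, at -162 bp, is nearer to the start of M04B2.11. lin-61, which encodes a protein with MBT repeats, had a signal of 91.8 (48.2 and 54.9), at -426 bp and nearer to bub-1, a gene of the spindle checkpoint. lin-13, lin-15B, lin-36, hpl-2, met-2, lin-65, let-418 and tam-1 had none, with highest signals of 21.9 to 65.3.

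Class A synMuv genes had 0 of 4, and the Tip60-like class C genes 1 of 4. A count of 0 of 4 allows up to 75%, taken as 3 over the number of genes, a rough limit for so few. The class C gene with a peak, epc-1, a homologue of enhancer of polycomb, had a signal of 132.6 (56.6 and 81.1) at -229 bp. The summit was also at -219 bp from Y111B2A.34. The other E2F genes, efl-2 and efl-3, had 0 of 2, and efl-2 had no ranked peak within 1000 bp. With a background of 4.43%, a count of 0 in so short a list is read as no result.

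Among genes for partners of LIN-53 and its relatives, 2 of 7 had one. hcp-3, which encodes the centromeric histone H3 variant CENP-A, had the highest signal of all 72 genes examined, at 189.5 (82.6 and 113.6), with a summit at -680 bp. hat-1, which encodes a histone acetyltransferase, had 133.3 (62.1 and 69.2) at -241 bp. The deacetylase gene hda-1 had none, with a strongest signal of 70.2 and an IDR of 0.0247.

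Replication genes, many of them known E2F targets in other animals, had 4 of 19. They were mcm-2 (signal 156.6, 59.2 and 101.3 in the replicates), pcn-1 (155.1, 67.1 and 86.6), pola-1 (105.2, 53.1 and 53.0) and mcm-4 (102.8, 46.2 and 53.7), with summits between -106 and -256 bp. The other genes of the MCM helicase had none, with signals of 68.5 at mcm-3 (IDR 0.0252), 57.7 at mcm-5, 38.5 at mcm-6 and 38.4 at mcm-7. Of the mitotic cyclins and kinases 1 of 8 had a peak, cyb-2.2, a B-type cyclin gene (89.2, 48.1 and 44.1). Of the regulators of the G1 to S transition, many of which act upstream of LIN-35, 0 of 10 had one in this list. A count of 0 allows up to 30% by the same rough limit. The highest signals of these regulators were 13.4 to 67.8. lin-23, the highest of them, which encodes an F-box protein, passed in the list from the pooled libraries.

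The reproducible peaks closest to lin-35 in both replicate values, by the distance between log2 values over the 2 replicates among 673 peaks with a protein-coding start within 1000 bp, were those nearest to kvs-3, wip-1, chaf-2, Y22D7AL.10 and W03C9.5. Their pooled signals were 152.1 to 184.8, with 69.1 to 76.4 in replicate 1 and 97.6 to 106.4 in replicate 2. Their summits lay at -76 bp at kvs-3, -322 bp at wip-1, -181 bp at chaf-2, -192 bp at Y22D7AL.10 and -178 bp at W03C9.5. The lin-35 summit lay at -167 bp. chaf-2 encodes a subunit of the chromatin assembly factor. The likeness is one of 2 values per peak and says nothing of shared function.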

How the data were processed

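ChIP-seq peaks of EGFP-tagged ZTF-28 in 2 replicates of young adult worms were analysed. The authors deposited ranked and IDR-thresholded peak lists of each replicate alone, of the comparison of replicates (here the reproducible list, deposited as conservative) and of the pooled libraries (optimal), in assembly ce11, per the labels. Aligner and caller: not given in the sources used here. Each deposited peak has a signal value and a score, and the ranked lists give the −log10 of the global IDR, as the authors wrote it. The lowest deposited score of the reproducible list corresponds to an IDR of 0.01.

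The comparison of replicates gives 1 value per replicate without names. The first matched the overlapping ranked peak of replicate 1 in signal at 1077 of 1086 reproducible peaks and at 6 of the 8 strongest member peaks. The second matched replicate 2 at 1080 and 7, and the opposite assignments matched at 0. The 6 value columns of the same kind in the other ranked lists were not used.

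Starts came from Ensembl release 115 and bases from RefSeq WBcel235. A gene had a peak if a summit lay within 1000 bp of any transcript start, and the strongest such peak was used. A highest signal of 0 stands for no ranked peak. Named genes were the members, the other listed genes with a reproducible peak, the nearest neighbours of each member's strongest summit and the 5 peaks most like that of lin-35. Other genes, listed ones without a reproducible peak and bub-1, M04B2.11, Y111B2A.34, unc-32, T23G7.2 and the bearers of a shared word among them, were named after their values were seen. The members and lists were chosen with earlier results of these data known, so no test was made. The window search was tested on simulated summits. Alternatives were other lists, a stricter IDR, other windows, 1 start per gene, other ranks, other words and other choices of summit. Python 3.11.15, NumPy 2.4.6, pandas 2.3.3 and matplotlib 3.10.9 were used.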

Additional observations from a re-analysis of the deposited data

How the results depend on the processing

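The count of 4 members with a reproducible peak was also 4 in the list from the pooled libraries, at an IDR of at most 0.001, with summits within 500 bp, from 500 bp upstream to 200 bp downstream, with overlap of the peak interval and with 1 start per gene, and in each of these it was the same 4 genes. It was 3 in each list of 1 replicate alone: lin-54 was lost without replicate 2 and lin-9 without replicate 1. The share of protein-coding genes with a peak, 4.43%, was 1.62% to 1.95% with 1 replicate left out and 1.54% at an IDR of at most 0.001. The count of other listed genes, 10, was 4 to 6 with 1 replicate left out and 5 at that IDR. These 3 lists hold fewer peaks. The lin-35 signal of 167.8 was 71.6 to 100.3 without 1 replicate, on scales that need not match. The count of members whose strongest summit is nearer to another gene, 4, became 2 with the summit nearest to the start. Of 39 alternative values, 30 were within 1.5 times of the value reported and 9 were not. No paired analysis was possible because there is 1 group and no test. Unknown depth limits any statement that a gene without a peak is unbound.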

Other observations

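One word of 8 bases was common to the windows of 150 bp to each side of the summit at 3 of the 4 members with a reproducible peak, lin-35, lin-9 and lin-54. It was found by comparing the 4 windows after their values were seen, and no other word of this length stood in 3 or more of them. It lay at -128 bp from the start of lin-35, -75 bp from that of lin-9 and -286 bp from that of lin-54. At lin-9 and lin-54 it overlaps a word of the E2F set. Over all reproducible peaks 33 of 1086 windows held it (3.04%), against 0.421% of ranked peaks that did not pass. The 33 include the members and listed genes named here. The median share of G and C was 42.9% in reproducible windows and 38.5% in those that did not pass, and its part in these percentages was not tested. Of the 10 other listed genes with a reproducible peak, 4 held the word, namely cyb-2.2, mcm-4, pcn-1 and pola-1. E2F words stood in 7 of these 10 windows, with 4 of them at mcm-4, and CHR words in 9, against 25.4% and 56.1% of all reproducible windows. CHR words stood in 61.1% of the windows of ranked peaks that did not pass. The lists include replication genes, many known as E2F targets in other animals, and were chosen with earlier results of these data known. Nothing is therefore read from the counts of words at these 10 genes.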
